A study of Rattus norvegicus with 6 samples.

Results

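Mitochondrial ribosomal protein genes were taken as the genes of the deposited table whose symbol starts with Mrpl or Mrps followed by a number. Of the 22601 genes listed, 76 met this rule, 46 with a large subunit symbol (Mrpl) and 30 with a small subunit symbol (Mrps). No symbol was listed more than once, and all 76 GeneIDs were found in the RefSeq gene table of the rat. The rule is sensitive to letter case, so mrpl9, mrpl11 and mrpl24, which the table writes in lower case, fell outside it and are given only beside the results. Subunits with other names, such as Dap3 and Ptcd3, also fell outside.

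Mitochondria keep a small genome of their own and translate its few messages with a dedicated ribosome, whose products are core subunits of the respiratory chain. The RNA of this ribosome is made inside the organelle, while its proteins are encoded in the nucleus, made in the cytosol and imported. Many of these proteins descend from those of the bacterial ribosome, and the others joined the mitochondrial ribosome later and have no bacterial counterpart. The small subunit reads the message, the large subunit joins the amino acids, and the exit side of the large subunit lies against the inner membrane, into which the new proteins are inserted. Transcription of these nuclear genes is commonly linked with the factors NRF1, GABPA and YY1.

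The series used RBL-2H3, a rat basophilic leukemia line that serves as a model of mast cells, with the genotype given as WT. RNA-seq was done on 3 control libraries and on 3 libraries of cells that had received 10 µM PIO, a PPARγ agonist, during 6 h. The labels give control cells neither a vehicle nor a time, and an effect of these cannot be told apart from that of PIO. Separate cultures are not stated either, so the p-values reflect spread among 6 libraries that may be technical only.

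The library totals behind the FPKM, recovered from the values themselves, were 14048202 to 15084729 reads. Mast cell and basophil genes were present at high levels, Fcer1a at 139 FPKM and Ms4a2 at 861 FPKM in control, while the mast cell protease gene Tpsab1 was listed at 0 throughout. Of the defining markers of other cells, Cd68 of macrophages was at 1.48 FPKM and Col3a1 of fibroblasts at 5.26 FPKM in control, and the neutrophil markers summed to at most 0.246 FPKM. Nkg7, a granule gene of T and NK cells, was at 324 FPKM, while Cd3e of T cells was at 1.01 FPKM. Between pairs of libraries the squared differences in reads were on average 2.80 to 8.95 times those of counting noise. Control replicate 3 stood apart, with factors of 5.76 to 8.95 against the other 5 libraries. The Atf4 level of control replicate 3 was 617 FPKM, against 279 and 277 FPKM in control replicates 1 and 2 and 243, 240 and 255 FPKM with PIO (Atf4 encodes a stress-response transcription factor). The directions of the ribosomal protein and respiratory chain genes are therefore also given without control replicate 3. Those of the other gene groups were not computed without it.

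Promoter windows were available for 61 of the 76 genes, 38 of the large and 23 of the small subunit, as the 250 bases before and 50 bases after the start in RefSeq on the rat assembly GRCr8. They were searched on both strands for short forms of the motifs of the named factors. The NRF1 motif was spelled GCGCA and GCGC with any 1 base between them, the ETS motif that GABPA recognises CCGGAAG, and the YY1 motif AAGATGGCG. The ETS letters can run into those of YY1, since the first ends and the second begins with AAG. The windows below belong to the most abundant gene with each motif (Mrpl17, Mrpl23 and Mrpl42), to the most abundant small subunit gene (Mrps21) and to a gene that shares its start region with another of these genes (Mrpl46). They run 5′ to 3′ on the gene's strand, with the motif in capitals (NRF1 in Mrpl17, ETS in Mrpl23 and, read on the other strand, in Mrps21, YY1 in Mrpl42 and Mrpl46). Mrpl42 and Mrpl46 were chosen for display after their values were seen.
Mrpl17, chr1:169575650-169575949, minus strand: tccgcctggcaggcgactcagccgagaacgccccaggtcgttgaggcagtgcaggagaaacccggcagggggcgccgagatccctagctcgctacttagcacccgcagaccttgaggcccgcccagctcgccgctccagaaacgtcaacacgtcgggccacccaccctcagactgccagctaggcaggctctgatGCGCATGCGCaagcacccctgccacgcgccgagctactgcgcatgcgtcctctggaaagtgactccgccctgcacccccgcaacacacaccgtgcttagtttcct
Mrpl23, chr1:207116680-207116979, plus strand: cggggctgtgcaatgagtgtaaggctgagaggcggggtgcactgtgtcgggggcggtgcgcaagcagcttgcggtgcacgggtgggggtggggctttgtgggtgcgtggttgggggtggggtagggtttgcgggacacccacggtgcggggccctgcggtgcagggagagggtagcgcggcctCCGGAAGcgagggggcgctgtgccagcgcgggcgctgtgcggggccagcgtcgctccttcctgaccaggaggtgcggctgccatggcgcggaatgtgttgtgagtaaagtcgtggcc
Mrpl42, chr7:32028473-32028772, minus strand: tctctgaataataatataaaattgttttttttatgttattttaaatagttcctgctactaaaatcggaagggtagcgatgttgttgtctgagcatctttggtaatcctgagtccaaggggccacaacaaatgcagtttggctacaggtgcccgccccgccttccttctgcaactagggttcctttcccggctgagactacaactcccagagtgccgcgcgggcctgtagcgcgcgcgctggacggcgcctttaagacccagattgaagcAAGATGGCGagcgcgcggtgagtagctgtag
Mrps21, chr2:186103302-186103601, minus strand: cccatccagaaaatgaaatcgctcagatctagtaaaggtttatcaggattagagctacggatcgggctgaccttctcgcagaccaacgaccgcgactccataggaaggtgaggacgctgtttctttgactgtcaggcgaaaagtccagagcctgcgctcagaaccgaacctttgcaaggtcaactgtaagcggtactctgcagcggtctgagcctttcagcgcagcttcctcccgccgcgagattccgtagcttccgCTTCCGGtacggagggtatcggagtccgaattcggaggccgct
Mrpl46, chr1:142116981-142117280, minus strand: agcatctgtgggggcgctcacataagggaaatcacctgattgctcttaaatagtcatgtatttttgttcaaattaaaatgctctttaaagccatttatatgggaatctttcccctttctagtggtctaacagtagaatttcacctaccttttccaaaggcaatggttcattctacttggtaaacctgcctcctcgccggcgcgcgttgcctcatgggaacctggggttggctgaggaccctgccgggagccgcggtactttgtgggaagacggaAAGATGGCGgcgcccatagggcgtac

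The ETS letters were found in 21 of the 61 windows (34.4%), against 11.2% of the windows of 19005 protein-coding genes. The NRF1 letters were found in 9 (14.8%, against 6.09%) and the YY1 letters in 9 (14.8%, against 2.29%). At least 1 of the 3 motifs was in 31 windows (50.8%, against 17.6%), in 22 of 38 of the large and 9 of 23 of the small subunit. Other motifs lay closer to the share over all genes. The E-box CACGTG was in 6 windows (9.84%, against 7.27%), CCAAT in 26 (42.6%, against 38.4%) and TATAAA in 7 (11.5%, against 13.1%). The element of PPARγ and its partner RXR, searched as AGGTCA repeated after any 1 base, was in none of the 61 windows and in 0.0263% of all windows. The median GC content was 56% in these windows and 55.3% in all, and the median number of CpG dinucleotides 18 and 12. A match says only that these letters are present in the window.

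**Figure D1:**
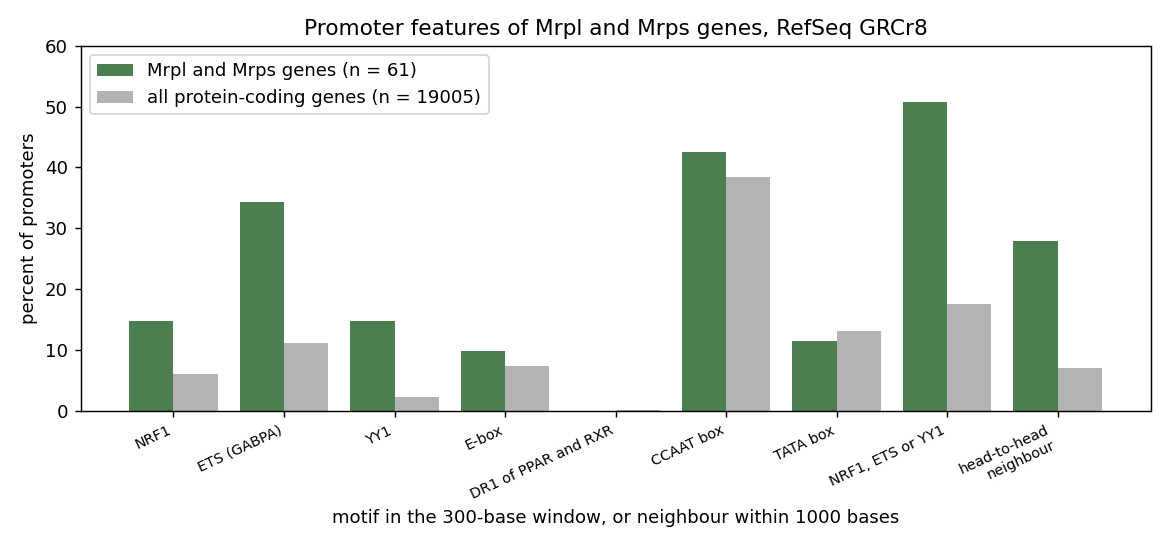
Percent of promoter windows that hold each motif on either strand, or whose gene has a protein-coding start on the other strand within 1000 bases, for 61 mitochondrial ribosomal protein genes (green) and 19005 protein-coding genes (grey). The bars for NRF1, ETS and YY1 stand at 14.8%, 34.4% and 14.8% in green, against 6.09%, 11.2% and 2.29% in grey.

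The genes also often started close to another gene. A protein-coding gene on the other strand began within 1000 bases, pointing away, for 17 of the 61 (27.9%), against 6.99% of protein-coding genes. In 1 case both genes encode mitochondrial ribosomal proteins. Mrpl46 of the large and Mrps11 of the small subunit start 234 bases apart and were at 19.2 and 32.7 FPKM in control. The difference in level between neighbours varied. Mrpl49 (65.4 FPKM) starts 186 bases from Fau, a cytosolic ribosomal protein gene at 722 FPKM, and Mrpl47 (8.42 FPKM) starts 244 bases from Ndufb5, a complex I gene at 83.1 FPKM. Mrps27 (14.9 FPKM) starts 91 bases from Ptcd2, which encodes another mitochondrial RNA-binding protein and was at 12.2 FPKM. Mrps11, Mrpl49 and these neighbours were chosen after their values were seen. Genes with at least 1 of the 3 motifs had a median of 36.2 FPKM in control (n = 29 tested) and those without 34.2 FPKM (n = 30), with wide quartiles of 24.5 to 60.2 and 26.0 to 49.2 FPKM.

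FPKM scales the fragments of a gene to its length and to the reads of the library, so that levels can be set side by side. Shorter genes still tended to have higher levels, as given below, which limits comparison between genes of different length. Over the 6 libraries the 76 genes had a median level of 32.7 FPKM with quartiles of 22.1 and 51.8 FPKM, and 67 lay between 10 and 100 FPKM. Large and small subunit genes had similar medians, 31.6 and 33.8 FPKM. The large subunit genes were more spread out: their upper quartile (56.0 FPKM) was 2.88 times the lower (19.5 FPKM), against 2.01 times for the small subunit (48.3 and 24.0 FPKM). This held in each library, with ratios of 2.72 to 3.11 for the large and 1.87 to 2.13 for the small subunit. The spread includes Mrpl1, Mrpl30 and Mrpl36, whose low values are uncertain, as given below. Over the 44 large subunit genes tested, which leave out Mrpl30 and Mrpl36, the control quartiles were 21.1 and 55.7 FPKM. Over the 30 small subunit genes they were 23.7 and 47.6 FPKM. The ratio of the large to the small subunit median was 0.944, 0.943 and 0.980 in control replicates 1 to 3 and 0.908, 0.881 and 0.949 with PIO. Its mean was 0.934 ± 0.0346 (SD, n = 6 libraries), below 1 in every library. Among genes of at least 5 FPKM the ratio was 0.976 and lay above 1 in control replicate 1 (1.01) and PIO replicate 3 (1.04), so the order of the medians was then not the same in every library.

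**Figure D2:**
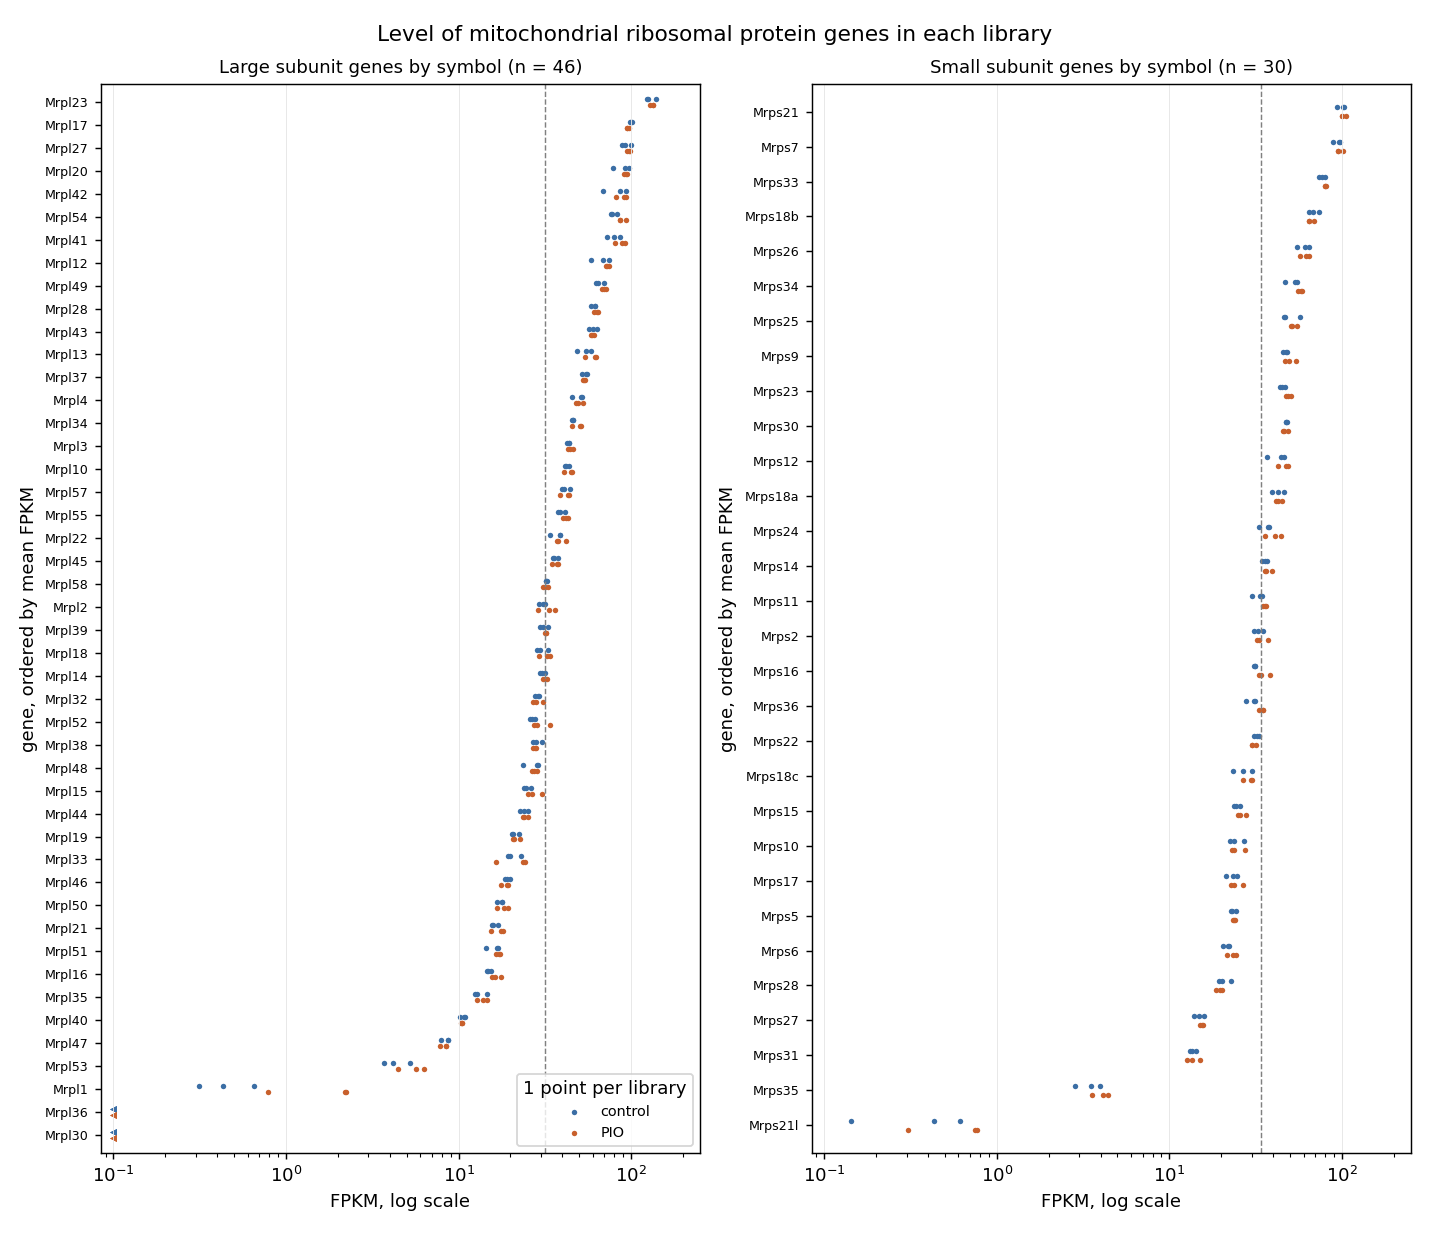
FPKM (log scale) of each mitochondrial ribosomal protein gene in each of the 6 libraries, control in blue and PIO in orange, for large (left) and small (right) subunit symbols ordered by mean level, with the median of each panel as a dashed line and triangles at the left edge for values under 0.1 FPKM. Most genes lie between 10 and 100 FPKM, the points of a gene sit close together, and the lowest large subunit genes (Mrpl1, Mrpl36, Mrpl30) fall far below the rest.

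The 42 genes with a bacterial counterpart had a median of 32.5 FPKM and the 32 without a counterpart 38.5 FPKM. Small subunit genes with a bacterial counterpart were the most even, with an upper quartile 1.60 ± 0.0680 times the lower in control and 1.67 ± 0.0418 times with PIO (SD, n = 3). That class held 16 genes. For the 10 small subunit genes specific to mitochondria these ratios were 3.03 ± 0.244 and 3.14 ± 0.214. For large subunit genes they were 3.09 ± 0.200 and 3.20 ± 0.111 with a counterpart (26 genes), and 2.17 ± 0.081 and 2.07 ± 0.037 without (22 genes). The wider spread of the large subunit was thus present among genes with a counterpart, and the order was reversed among those without. Mrpl1, Mrpl30 and Mrpl36, whose low values are uncertain as given below, are large subunit genes with a counterpart. The ratios were not computed without them. The SDs reflect the libraries only, not which genes a class holds. In these classes Mrps18a and Mrps30 count as large subunit genes. All 76 genes together took 0.597 ± 0.0216% of the summed FPKM in control and 0.609 ± 0.00802% with PIO (SD, n = 3), which overlapped. The 78 cytosolic ribosomal protein genes took 22.0% and 22.7%, with a median of 1318 FPKM in control, and the 85 nuclear-encoded respiratory chain genes took 2.74% and 2.82%, with a median of 110 FPKM.

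The 4 most abundant large subunit genes have bacterial counterparts. The next in level, Mrpl42, Mrpl54 and Mrpl41 (85.7, 83.8 and 83.3 FPKM over the 6 libraries), have none. Mrpl41 and Mrpl42 were named here after their values were seen. In the classes above, the large subunit median over the 6 libraries was 31.4 FPKM with a counterpart and 34.3 FPKM without. Mrpl23, whose protein lines the exit of the peptide tunnel, was at 140, 124 and 126 FPKM in control and 128, 134 and 133 FPKM with PIO. Mrpl17 followed, at 99.9, 101 and 98.8 FPKM in control and 94.3, 95.3 and 97.3 FPKM with PIO. Mrpl27, whose protein reaches toward the site of peptide bond formation, and Mrpl20, an RNA-binding protein of early assembly, had means of 95.0 and 91.5 FPKM over the 6 libraries. Mrpl2 and Mrpl3, whose proteins also lie near that site, were at 31.7 and 43.9 FPKM.

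The stalk of the large subunit recruits translation factors, and its genes spanned a wide range. Mrpl10, the base of the stalk, was at 43.0 FPKM and Mrpl12, the factor-binding protein, at 70.0 FPKM. Mrpl53, which lies beside Mrpl12, was at only 4.93 FPKM, with values of 5.26, 3.68 and 4.17 FPKM in control and 6.35, 5.66 and 4.49 FPKM with PIO. The lower-case mrpl11, the other protein at the stalk base, was at 46.0 FPKM in control. At the exit tunnel, Mrpl45, which attaches the ribosome to the inner membrane, was at 36.5 FPKM and Mrpl47 at 8.33 FPKM, both well below Mrpl23. Mrpl58, a peptidyl-tRNA hydrolase that was built into the ribosome, was at 32.1 FPKM.

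In the small subunit, Mrps21 was highest at 101, 103 and 93.2 FPKM in control and 99.7, 101 and 106 FPKM with PIO. Mrps7, which organises the head of the subunit, was at 95.7 FPKM, and Mrps33, which has no bacterial counterpart, at 78.5 FPKM. Mrps12 of the decoding site had 46.2, 44.5 and 36.7 FPKM in control and 47.4, 48.6 and 42.9 FPKM with PIO, lowest in control replicate 3. Mrps24, the counterpart of a bacterial protein at the entry of the message, was at 38.3 FPKM, and Mrps5 at 23.5 FPKM. The lowest small subunit genes above 10 FPKM were Mrps31 (13.7 FPKM) and Mrps27 (15.1 FPKM), a pentatricopeptide repeat protein. Mrps35 lay lower, at 3.5, 2.86 and 3.99 FPKM in control and 3.56, 4.11 and 4.44 FPKM with PIO.

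Some symbols do not give the protein's place. Mrps18a, Mrps18b and Mrps18c are all related to a single bacterial protein, and they stood at 42.9, 67.5 and 27.9 FPKM over the 6 libraries. Despite this relation, Mrps18a and Mrps18b were counted among the genes without a bacterial counterpart. Mrps18c is the direct counterpart of the bacterial protein in the small subunit and the lowest of them, while Mrps18a sits in the large subunit. Mrps30 (47.2 FPKM) is also a large subunit protein. Mrps36 (32.2 FPKM) is now assigned to the oxoglutarate dehydrogenase complex rather than to the ribosome. With Mrps30 and Mrps18a counted as large subunit genes and Mrps36 and the copy Mrps21l left out, the ratio of the large to the small median was 0.957, within 1 SD of the ratio by symbol, and lay above 1 in PIO replicate 3 (1.02). The subunits with other names fell in the same range in control, Dap3 at 27.0, Ptcd3 at 31.2, Gadd45gip1 at 42.1, Aurkaip1 at 68.3 and Chchd1 at 115 FPKM.

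Low values of 3 large subunit genes went with a second listed gene of the same product. The authors' counting could have split reads between such near-identical genes, so these values are uncertain, and the pairs were picked after their values were seen. The GeneIDs of the 3 second genes were not found in the RefSeq gene table, unlike those of the 3 large subunit genes. Mrpl30 had 0, 1 and 0 reads in control and 1, 0 and 0 with PIO, while NEWGENE_1308196, listed with the same product name, had 66, 17 and 68 reads in control and 97, 199 and 74 with PIO. Mrpl36 had 0 reads in 5 libraries and 1 in PIO replicate 3, while the like-named LOC100910528, whose recovered length was 970 bases against 971, had 76, 53 and 71 reads in control and 157, 75 and 74 with PIO. A count of 0 allows up to 3 reads, for counting error only. Neither Mrpl30 nor Mrpl36 reached the mean of 0.5 FPKM needed for a test. Summed over the pair, Mrpl30 came to 5.59, 1.57 and 5.88 FPKM in control and 8.85, 17.7 and 6.71 FPKM with PIO. The Mrpl36 pair came to 5.19, 3.87 and 4.95 FPKM in control and 11.5, 5.40 and 5.49 FPKM with PIO. In FPKM the PIO libraries of both pairs lay above the control libraries, as was so for 10.5% of all genes tested. For the Mrpl36 pair the gap was narrow, 5.19 FPKM in control replicate 1 against 5.40 FPKM in PIO replicate 2. In reads this pair overlapped, with 76, 53 and 71 in control and 157, 75 and 75 with PIO. Nearly all reads of both pairs were on the second gene, which did not pass (limma log2 fold change 1.32 and adjusted p = 0.357 for NEWGENE_1308196, 0.54 and 0.432 for LOC100910528).

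Mrpl1, whose protein forms the movable stalk by which the used tRNA leaves, was split more evenly. It had 7, 10 and 5 reads in control and 34, 34 and 12 with PIO, with every PIO library above every control library. LOC100359687, listed as Mrpl1-like, had 25, 43 and 36 reads in control and 16, 29 and 22 with PIO, and lay lower in the PIO libraries on average. The sum of both was 32, 53 and 41 reads in control and 50, 63 and 34 with PIO. In FPKM the sum was 1.97, 3.49 and 2.58 in control and 3.30, 4.08 and 2.24 with PIO, so the groups overlapped. A difference in Mrpl1 alone cannot be told apart from a different division of reads between the pair. Copies of the abundant genes took few reads. Mrps21l, a copy of Mrps21 that meets the rule, had 1 to 5 reads per library, against 1159 to 1281 for Mrps21. The low gene Mrpl53 also had a second listed gene, LOC103692169, whose GeneID was not found in the RefSeq gene table either. LOC103692169 held only 0, 0 and 1 reads in control and 0, 0 and 0 with PIO.

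**Figure D3:**
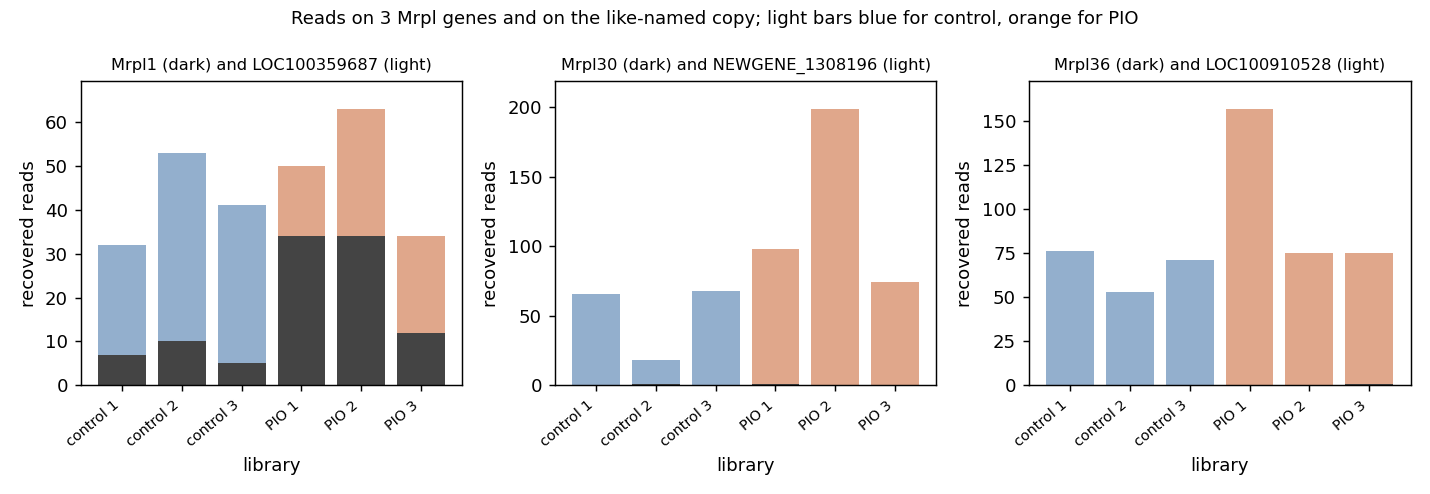
Recovered reads per library on Mrpl1, Mrpl30 and Mrpl36 (dark) stacked with those on the like-named second gene (light, blue for control and orange for PIO). For Mrpl1 the dark part grows from 5 to 10 reads in control to 12 to 34 with PIO while the stacks overlap, and for Mrpl30 and Mrpl36 nearly all reads lie on the second gene.

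The level of most genes was steady within a group. Among the 74 genes tested, the median coefficient of variation over the control libraries was 5.22% for the large and 6.27% for the small subunit, against 4.39% and 4.03% from counting error alone. With PIO the medians were 4.84% and 5.09%. In 25 genes the control libraries varied less than counting error would give on average. Mrpl34 (46.1, 46.1 and 45.7 FPKM) and Mrps30 (47.6, 48.1 and 47.5 FPKM) were the steadiest, with coefficients of 0.578% and 0.662%. The most variable were Mrps21l (59.6%) and Mrpl1 (37.4%), the tested genes with the fewest reads, for which counting error alone gives 61.2% and 36.9%. Shorter genes tended to have higher levels, with Spearman's rho of -0.37 between mean FPKM and gene length across the 74 genes (-0.43 for the large and -0.22 for the small subunit), which share the same libraries.

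The series asked what PIO changes in these cells, and none of the 74 tested genes passed an adjusted p of 0.05 (limma with Benjamini-Hochberg adjustment over 10410 genes), where 0.0384% of all genes did. The smallest adjusted p was 0.290. Differences were small and mostly upward: 61 genes were higher and 13 lower with PIO (82.4% higher, against 54% of all genes), with a median log2 fold change of 0.055 against 0.0094 over all genes. The large subunit had 35 genes higher and 9 lower (median 0.050), the small subunit 26 higher and 4 lower (median 0.070). Genes with a bacterial counterpart were higher in 36 of 40 (median 0.060) and those without in 23 of 32 (median 0.033). With TPM in place of FPKM the split was 49 higher to 25 lower, with a median of 0.027 against -0.0186 over all genes. Genes with a bacterial counterpart then split 31 to 9 (median 0.031) and those without 16 to 16 (median 0.0043). Whether these classes differ was not tested. In bulk RNA a different mix of cells and a different amount of RNA per cell cannot be told apart.

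At an unadjusted p under 0.05 there were 8 genes, which is 10.8% of the 74, against 12.5% of all genes. All 8 were higher with PIO, where 6.36% of all genes were higher and 6.15% lower at that p. Every PIO library lay above every control library in 8 genes (10.8%, against 10.5% of all genes) and below in 1 (Mrpl17, 1.35% against 8.09%). The shares past the unadjusted threshold and with PIO above thus lay near the background, while fewer of these genes than of all genes lay on the lower side. The 8 in both counts were Mrpl1, Mrpl54, Mrpl16, Mrps36, Mrps16, Mrps34, Mrps23 and Mrps11, of which Mrpl16, Mrps23 and Mrps11 were named after their values were seen.

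Apart from Mrpl1, the smallest p-values belonged to modest differences. Mrpl54, a mitochondria-specific protein of the large subunit, was at 82.9, 76.1 and 77.7 FPKM in control and 86.3, 86.4 and 93.1 FPKM with PIO. The log2 fold change was 0.17 (SE 0.05, limma adjusted p = 0.304). Mrps36, the gene that now counts as part of oxoglutarate dehydrogenase, was at 31.3, 30.9 and 28.0 FPKM in control and 33.1, 34.7 and 34.9 FPKM with PIO, a log2 fold change of 0.18 (SE 0.05, limma adjusted p = 0.304). Neither pair of groups overlapped, and neither passed. Mrps16, with a bacterial counterpart, was at 31.6, 31.5 and 30.9 FPKM in control and 33.2, 38.3 and 34.0 FPKM with PIO (limma log2 fold change 0.16, adjusted p = 0.346). Mrps34, a mitochondria-specific protein that holds the small subunit together, was at 53.8, 54.8 and 46.6 FPKM in control and 55.6, 58.0 and 58.9 FPKM with PIO (limma log2 fold change 0.16, adjusted p = 0.379). Control replicate 3 held the lowest value of Mrps36, Mrps16 and Mrps34. The lower-case mrpl11 was at 46.9, 48.5 and 42.8 FPKM in control and 48.8, 53.1 and 52.1 FPKM with PIO (limma log2 fold change 0.16, adjusted p = 0.357).

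Mrpl1 had the largest log2 fold change, 1.15 (SE 0.29, limma adjusted p = 0.290), from 0.466 ± 0.174 to 1.74 ± 0.825 FPKM (SD, n = 3), on the few reads given above. It stayed above 0 in all alternatives that tested it, between 0.86 and 1.76, and did not pass in any. For comparison, Cpt1a, the carnitine palmitoyltransferase gene that passed, went from 6.05 to 12.5 FPKM (limma adjusted p = 0.00159).

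Among the genes lower with PIO, Mrpl17 had the smallest p. Its mean was 99.9 ± 1.20 FPKM without and 95.7 ± 1.53 FPKM with PIO (SD, n = 3), a difference of -4.27%, with a log2 fold change of -0.06 (SE 0.03, limma adjusted p = 0.446), and the groups did not overlap. The others overlapped between groups. Mrps22, a mitochondria-specific protein, had a log2 fold change of -0.06, Mrps28, the counterpart of a bacterial protein that binds messages, -0.09, Mrps18b -0.06 and Mrps30 -0.03. In none of these genes did the test tell the difference from the spread between libraries.

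**Figure D4:**
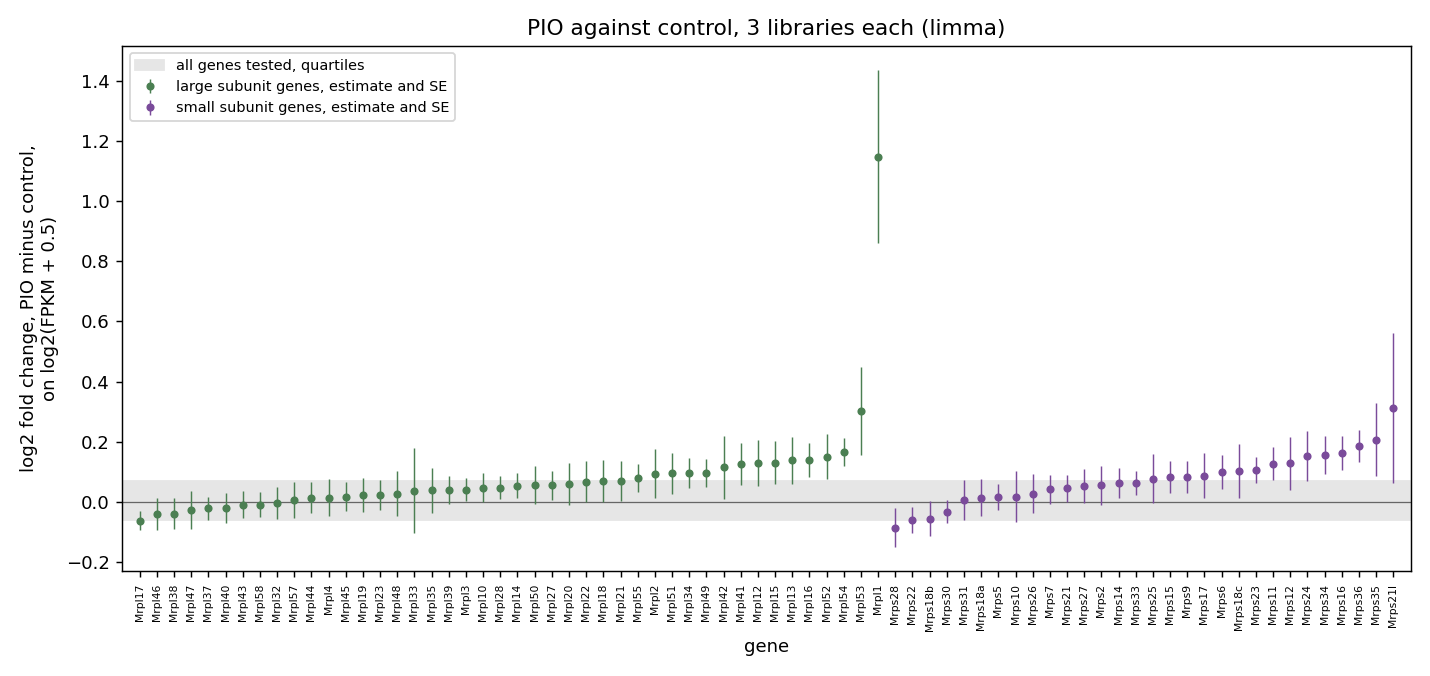
Log2 fold change (PIO minus control, on log2(FPKM + 0.5)) of each of the 74 tested genes with its standard error from limma, large subunit in green and small subunit in purple, beside the quartiles of all genes tested (grey band). Most estimates lie a little above 0 within or near the band, 61 above 0 and 13 below, and Mrpl1 stands alone at 1.15.

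The upward lean rested partly on single libraries. The median log2 difference of the 74 genes from their mean over libraries was 0.0235, -0.0301 and -0.0882 in control replicates 1 to 3 and -0.0105, 0.0550 and 0.0353 in PIO replicates 1 to 3. Control replicate 1 lay above PIO replicate 1, so the groups overlapped. Control replicate 3 was the lowest of the 6 libraries for 40 of the 74 genes (22 of the large and 18 of the small subunit), and PIO replicate 3 for none. Of all 10410 genes tested, control replicate 3 was the lowest library for 2520 and PIO replicate 3 for 2078. Without control replicate 3 the genes split 50 higher to 24 lower with a median of 0.022 (0.022 for the large and 0.028 for the small subunit), and without control replicate 1 they split 62 to 12 with a median of 0.086. Without control replicate 3 the genes with a bacterial counterpart split 31 to 9 (median 0.028) and those without 17 to 15 (median 0.0032). Mrps12, Mrpl12 and Mrpl20 show the low library plainly: Mrpl12 was at 74.3, 68.3 and 58.5 FPKM and Mrpl20 at 97.5, 92.8 and 79.1 FPKM in control.

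The same lean was present in other groups of short, abundant messages. All 77 tested cytosolic ribosomal protein genes were higher with PIO (median log2 fold change 0.072, none passed), as were 71 of 77 respiratory chain genes (median 0.063, none passed). Without control replicate 3 these counts were 76 of 77 (median 0.069) and 63 of 77 (median 0.044). The median gene length was 1112 bases for the large and 1033 bases for the small subunit, 603 bases for the cytosolic ribosomal proteins and 717 bases for the respiratory chain, against 2790 bases over all genes tested. After each library's trend with gene length was subtracted, 44 mitochondrial ribosomal protein genes were higher and 30 lower, with a median of 0.019 (0.012 for the large and 0.045 for the small subunit). Genes with a bacterial counterpart then split 27 to 13 (median 0.025) and those without 15 to 17 (median -0.0045). Of the cytosolic ribosomal protein genes 51 were then higher and 26 lower, and the respiratory chain genes split 47 to 30. Control replicate 3 was then lowest for 28 of the 74, and for 2441 of all 10410 genes tested. The share of higher genes among the 74 was thus 59.5% after the correction, against 51% of all genes. With quantile normalization instead, the cytosolic ribosomal protein genes split 50 to 27 and the respiratory chain genes 64 to 13. The mitochondrial ribosomal protein genes kept their lean there, at 59 to 15 (79.7% higher, against 51.6% of all genes, median 0.053).

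**Figure D5:**
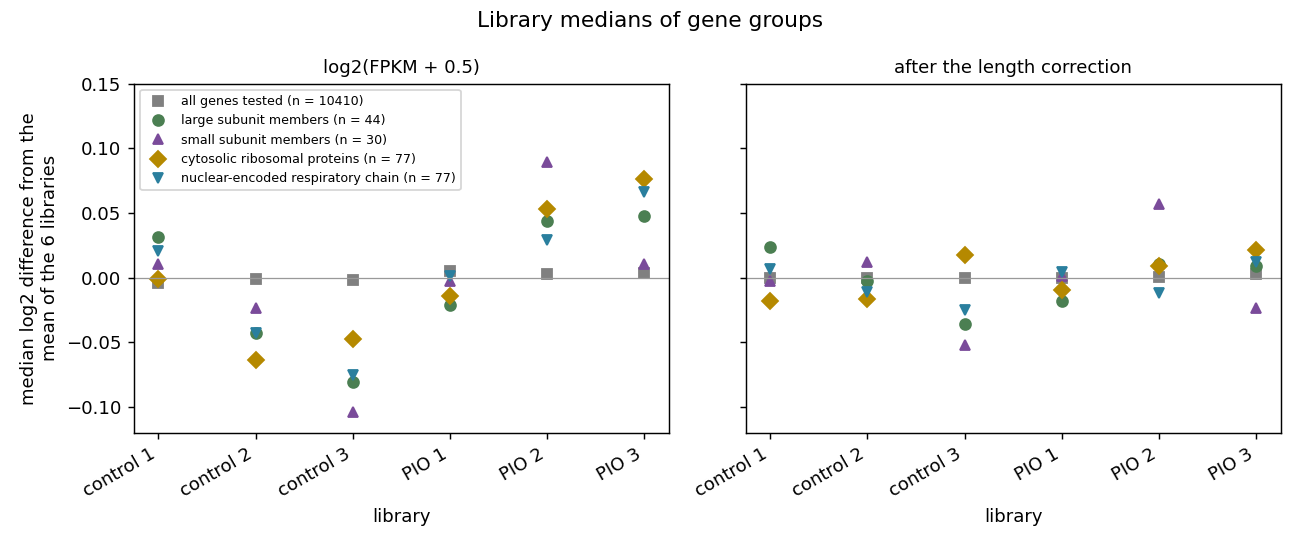
Median log2 difference of each gene group from its mean over the 6 libraries, on log2(FPKM + 0.5) (left) and after the correction for gene length (right), for all genes tested (grey squares), large (green circles) and small (purple triangles) subunit genes, cytosolic ribosomal proteins (yellow diamonds) and respiratory chain genes (blue triangles). On the left both subunits and the respiratory chain are lowest in control replicate 3 and the cytosolic ribosomal proteins in control replicate 2, while all genes stay near 0.

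The partners of the ribosome were split more evenly. Of 13 tested translation factors 8 were higher (median log2 fold change 0.012), of 29 assembly and RNA modification genes 16 (0.014), of 19 tRNA synthetase genes 10 (0.020) and of 10 regulators of mitochondrial gene expression 6 (0.010), and none passed in any list. The difference between these lists and the ribosomal proteins was not tested. In the same order the median gene lengths of the 4 lists were 1757, 1931, 2948 and 3060 bases. The large and small subunit genes were shorter, at 1112 and 1033 bases. The lists were not split again after the correction for gene length. A difference from the ribosomal proteins thus cannot be told apart from one of gene length. Tufm, the elongation factor that brings tRNA to the ribosome, had a mean of 71.0 FPKM without and 71.6 FPKM with PIO. At an unadjusted p under 0.05 the 4 lists held 4 genes higher and 4 lower. The 3 lists of translation and assembly genes gave the examples that follow. Ears2, the glutamyl-tRNA synthetase, was at 4.50, 4.05 and 4.45 FPKM in control and 3.70, 3.49 and 2.97 FPKM with PIO (limma log2 fold change -0.32, adjusted p = 0.304), with no overlap. Mettl15, a methyltransferase of the small subunit RNA, went from 2.38 to 1.89 FPKM (-0.27, limma adjusted p = 0.340), and Mtfmt, which formylates the initiator tRNA, from 11.1 to 9.82 FPKM (-0.17, limma adjusted p = 0.358). Malsu1, an assembly factor of the large subunit, was at 27.7 FPKM in control (0.11, limma adjusted p = 0.375).

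Among the regulators, the factors whose motifs were searched were present at 11.9 FPKM (Nrf1), 13.9 FPKM (Gabpa) and 26.1 FPKM (Yy1) in control, with log2 fold changes of 0.01, -0.10 and -0.13. Esrra, a nuclear receptor of mitochondrial genes, was at 14.6, 14.3 and 14.6 FPKM in control and 15.7, 16.1 and 16.4 FPKM with PIO (limma log2 fold change 0.14, adjusted p = 0.331). Myc, a growth regulator, lay the other way, at 71.2, 76.2 and 76.5 FPKM in control and 68.1, 70.7 and 66.0 FPKM with PIO (limma log2 fold change -0.13, adjusted p = 0.340), and neither gene's groups overlapped. These regulators and Tufm were picked after their values were seen. Ppargc1a, a coactivator of such genes, had at most 2 reads in any library. Genes with at least 1 of the 3 motifs in the window had a median log2 fold change of 0.024 (22 of 29 higher) and those without 0.083 (28 of 30 higher), a difference that was not tested.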

How the data were processed

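RNA-seq libraries, 3 control and 3 PIO, were made with a stranded mRNA kit per the labels' protocols. The values are FPKM per gene and library as deposited by the authors. Per the submitters' processing notes, BWA 0.7.5a, Cufflinks, DESeq, FastQC 0.11.5, HISAT2 2.2.1.0, HTSeq, SAMtools 1.3.1 and Trimmomatic 0.36 were used and the build was GRCh38, a human build, although the table lists rat genes. Tool roles are not given in the sources used here, and coordinates are printed only for RefSeq promoters on GRCr8.

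Within each gene the FPKM came in whole steps of 1 read, so reads and gene lengths were recovered for 15427 of 15429 genes above 0 (99.99%, tolerance 0.001 read), covering 99.5% of each library's total. Intervals and floors cover counting error only. Symbols turned into dates (27) were restored, and 91.3% of GeneIDs matched RefSeq. Genes whose mean reached 0.5 FPKM were tested on log2(FPKM + 0.5), which understates changes of low genes, with limma 3.58.1 in R 4.3.3, no term but group, a variance trend, two-sided tests and Benjamini-Hochberg adjustment over all genes tested. The code was tested on simulated data. Tables and figures were made with Python 3.11.15.

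The genes, lists and tests were chosen with earlier results of these data known. The genes named were the 4 highest and 4 lowest per subunit, the 5 per direction that had the smallest p, a fixed set by place in the ribosome, those under the minimum, the most and least variable in control, subunits with other names and 4 translation, assembly or tRNA synthetase genes with the smallest p. Alternatives were other pseudocounts, minimum means, scalings and variance fits, sample weights, the replicate block, limma-voom on recovered reads, a correction for gene length and each library left out. Mitochondrially encoded genes were not analysed here.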

Additional observations from a re-analysis of the deposited data

How the results depend on the processing

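None of the 20 alternatives called a mitochondrial ribosomal protein gene, and the smallest adjusted p of any was 0.0762, for Mrpl1 without PIO replicate 3 (limma). The count of all genes called, 4, became 1 with no filter on low values, 2 with no variance trend, 7 with a robust variance fit and 7 with limma-voom on recovered reads, and lay between 2 and 4 with 1 library left out. The cause was not tested. The median log2 fold change stayed above 0 in every alternative and lay between 0.022 and 0.086 with 1 library left out (0.022 to 0.076 for the large and 0.028 to 0.095 for the small subunit). Of 35 named genes with a fit, 12 changed sign in at least 1 alternative, Mrpl23 and Mrps18a in 5 and Mrpl45 and Mrps31 in 6. The ratio of the large to the small subunit median was 0.976 among genes of at least 5 FPKM and 0.773 in reads, which do not account for length. Same-numbered control and PIO libraries did not deviate together (correlations across genes -0.07, 0.03 and 0.08), so the numbers were not taken as pairs. With the replicate block 3 genes were called over the table and 0 of these genes, with a median of 0.055. Depth limits the lowest genes most: Mrpl1, Mrpl30, Mrpl36 and Mrps21l had at most 34 reads in a library.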
